A study of Mus musculus with 16 samples.

Results

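The genes described here encode the factors that start and drive protein synthesis on cytosolic ribosomes, the eukaryotic initiation factors (eIF) and elongation factors (eEF). They were taken by name from both deposited gene tables, as every symbol that begins with Eif1 to Eif6 or with Eef1 or Eef2, without the eIF2 kinases (Eif2ak). The rule found 63 of 23420 gene symbols. Among them are 4 symbols of another kind: Eif2c1, Eif2c2, Eif2c3 and Eif2c4 are older names of the Argonaute genes Ago1, Ago2, Ago3 and Ago4, which act in RNA silencing and not in initiation. They are counted as members and described apart, a choice made after the symbols had been seen.

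RNA was sequenced from mouse bone marrow cells sorted at 40 weeks of age. Multipotent progenitors (MPP; negative for lineage markers and CD150, positive for Kit, Sca1 and CD48) still give rise to several blood lineages. Granulocyte-monocyte progenitors (GMP; negative for lineage markers, Sca1 and CD150, positive for Kit and CD16/32) are later cells committed to granulocytes and monocytes. Each population came from 4 mice labelled WT, whose genotype field reads Tet2fl/fl, and 4 mice labelled Tet2KO, with the genotype Tet2-/-. The TET2 protein oxidizes the methyl group of methylated cytosines. Both alleles of the WT mice are thus floxed, the Cre driver of the deletion, if one was used, is not given in the sources used here, and 3 mice of each genotype gave both populations. Each population has 1 table that compares the genotypes with DESeq2, and no values per library, so no member can be shown mouse by mouse. Errors below are the standard errors (SE) of the log2 fold change in those tables, and a gene was called when its adjusted p was under 0.05.

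In cap-dependent initiation, eIF4E binds the cap of an mRNA, eIF4G bridges it to the small ribosomal subunit through eIF3, and the helicase eIF4A unwinds the leader. eIF2 brings the initiator tRNA, eIF1 and eIF1A guide the scan to the start codon, eIF2B recharges eIF2 with GTP, and eIF5 and eIF5B complete the joining of the large subunit. In elongation, eEF1A delivers each aminoacyl-tRNA, the eEF1B subunits recharge eEF1A, and eEF2 moves the ribosome along. Blood stem and progenitor cells are known for a tightly held rate of protein synthesis. Cells control it largely through phosphorylation of eIF2, of the eIF4E-binding proteins and of eEF2, none of which a transcript level can show.

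The direction of every comparison rests on the labels, and Tet2 itself does not check them. In the authors' deposited table Tet2 had a log2 fold change of 0.44 (SE 0.0992, adjusted p = 0.00551) in MPP and one of 0.35 (SE 0.0748, adjusted p = 0.000409) in GMP, a value for the whole gene in which a deleted part cannot be seen. The sort markers followed the gates: the mean normalized signal of the Sca1 gene Ly6a was 266.2 in MPP and 19.5 in GMP, and that of the CD16 gene Fcgr3 was 19.3 and 525.2, each on the scale of its own table. Markers of other cells moved with genotype in GMP. Of 6 tested monocyte and macrophage markers 4 were called higher, of 4 tested megakaryocyte markers 2 were called higher, and of 2 tested mast cell and basophil markers 1 was called lower. Of 2 tested mature neutrophil markers in GMP 1 was called higher, and the other stood at -0.42. Of the monocyte and macrophage markers 1 was lower at an unadjusted p under 0.05, and the lowest megakaryocyte value was -0.34. Among all tested genes 3.96% were called in GMP. In MPP 1 of 3 tested B cell markers (Rag2) was called lower, and 1 of 5 tested megakaryocyte markers was called higher. Another of these megakaryocyte markers stood at -0.92, with an unadjusted p under 0.05. Among all tested genes 0.616% were called in MPP. Among erythroid markers the globin genes Hba-a1 and Hba-a2 were listed at 0 in both tables, while Car1 had means of 1064 in MPP and 1578 in GMP and Alas2 of 95.1 and 48.8. Their part in the values below was not tested. In bulk samples, fewer cells of a type and less RNA per cell cannot be told apart.

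Many mRNAs of the translation machinery start with a C followed by an unbroken run of pyrimidines, the 5′ terminal oligopyrimidine (TOP) motif, through which growth signals set their translation. The bases around the annotated start show which members carry such a start in the reference. The 5 below are the 2 members with a TOP-like start, the most abundant factor of each elongation step, and the member that was called. Each runs 5′ to 3′ from 15 bases before to 15 bases after the RefSeq start (GRCm38.p6), and the capitals mark the first 5 transcribed bases.
Eif3f (chromosome 7, 108934400 to 108934429, plus strand): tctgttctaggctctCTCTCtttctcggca
Eif2s3x (chromosome X, 94212637 to 94212666, minus strand): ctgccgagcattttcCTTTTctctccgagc
Eef1a1 (chromosome 9, 78481710 to 78481739, minus strand): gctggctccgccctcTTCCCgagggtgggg
Eef2 (chromosome 10, 81176616 to 81176645, plus strand): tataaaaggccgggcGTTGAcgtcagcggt
Eif3m (chromosome 2, 105017013 to 105017042, minus strand): ttttccggtcggcgtGTTTCtggatcggag
A start was called TOP-like when base 1 was C and bases 2 to 5 were each C or T, read on the strand of the gene. This held for 2 of the 48 members with an entry, Eif3f and Eif2s3x, a share of 4.17% beside 3.01% of all 27025 genes in the RefSeq promoter table. Of 56 cytosolic ribosomal protein genes it held for 13, or 23.2%. The start of Eef1a1, a textbook TOP mRNA, did not pass, although a run of 10 C or T bases covers it. A second count, chosen after these bases had been seen, took any run of at least 8 C or T bases that touches the 10 bases on each side of the start. It held for 11 of the 48 members (22.9%), for 15.8% of all genes and for 48.2% of the ribosomal protein genes. Neither count shows how these mRNAs are translated.

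Translation factor genes differed little between the genotypes. Of 57 members tested in each population, none was called in MPP, beside 0.616% of all 11859 tested genes, and 1 was called in GMP, beside 3.96% of 11503. The called gene was Eif3m, which encodes a subunit of eIF3 and was lower in Tet2KO, as were 2.22% of all tested genes in GMP, while 1.75% were higher. In MPP 0.270% of all tested genes were called lower and 0.346% higher. At an unadjusted p under 0.05 the members numbered 5 in MPP (8.77%, beside 9.72% of all tested genes) and 9 in GMP (15.8%, beside 16.4%). Of these, 4 were lower and 1 higher in MPP, where 4.80% of all tested genes were lower and 4.92% higher. In GMP 6 were lower and 3 higher, beside 8.68% and 7.73%. The shares in either direction together lie near the background.

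The values leaned to the lower side by a small amount. The authors' deposited tables put 40 of the 57 members below 0 in MPP, with a median log2 fold change of -0.07, and 41 of 57 in GMP, with a median of -0.06. Among all tested genes 50.9% lay below 0 in MPP and 49.9% in GMP, with medians of -0.0038 and 0.00025. The members are well expressed, with a lowest mean of 107.4, and among all tested genes with a mean of at least 100 the shares below 0 were 52.8% and 54.8%. That floor does not match the level of the members. Their median mean was 1500 in MPP and 1769 in GMP, beside 260.7 and 290.6 for all tested genes. Spearman's rho between log2 fold change and mean was -0.0515 over 11749 tested genes in MPP and -0.207 over 11397 in GMP. Over the members it was -0.109 and 0.151. The part of level in the lean was not tested. When only the 45 core factors were kept, that is without inhibitors, kinase, Argonautes and genes with another main role, 37 lay below 0 in each population, with medians of -0.10 in both. This describes the list and is no test of it, since the genes share the same libraries.

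The 95% interval of the log2 fold change stayed within 0.5 of 0, a fold of 1.41, for 44 of 57 members in MPP and 53 of 57 in GMP. These shares of 77.2% and 93.0% compare with 54.4% and 67.0% of all tested genes, and with 74.4% and 88.2% of those with a mean of at least 100. The median SE of the members was 0.120 in MPP and 0.0809 in GMP. A gene with almost no signal could also have a small SE: Eif3j2, at a mean of 0.125 in MPP, had 0.0912. The intervals are those of the deposited fit, and any pull of its values towards 0 was not examined. The remaining members of the rule were accounted for as follows: 5 in each table had a mean under 10 and no adjusted p, and Eif1ax in MPP and Eif2s3x in GMP were marked as outliers by the authors and carry no p-value.

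**Figure D1:**
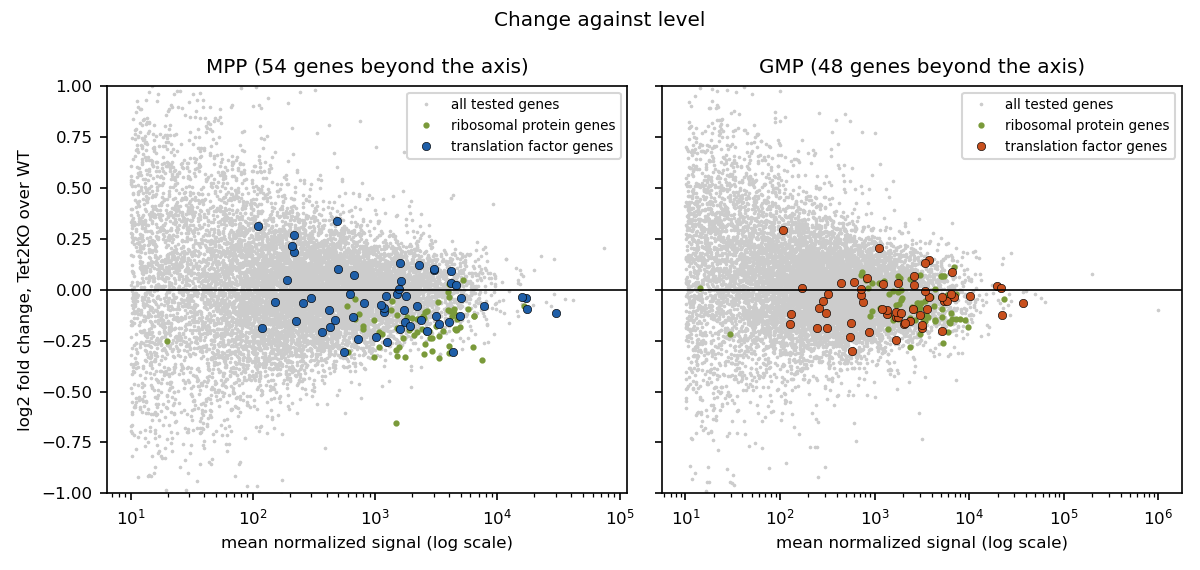
Log2 fold change of Tet2KO over WT (vertical axis, drawn from -1 to 1) against the mean normalized signal (horizontal axis, log scale) of every tested gene in MPP and GMP, with ribosomal protein genes in green and translation factor genes in colour. The factor genes sit at middle to high means and within 0.34 of 0, while 54 genes in MPP and 48 in GMP, none of them a member, lie beyond the drawn range.

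eIF3, the largest initiation complex, is the scaffold that holds the small subunit, the initiator tRNA and eIF4G together. Its 12 tested subunits lay below 0 in every case in MPP, with a median of -0.12, and in 11 of 12 cases in GMP, with a median of -0.11, in the authors' deposited tables. Eif3a, the largest subunit and the exception in GMP, had a value of 0.01 there. Only Eif3m passed the test, in GMP.

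Eif3m (chromosome 2, 104999656 to 105017080, minus strand, mm10) fell by 0.25 on the log2 scale in the authors' deposited table for GMP (SE 0.0707, adjusted p = 0.0203), a fall of 15.7%. Its 95% interval ran from -0.39 to -0.11. In MPP the same gene had a value of -0.26 (SE 0.132, adjusted p = 0.522), a similar size with a wider error. The call did not survive a widening of the null to the spread of all statistics (adjusted p = 0.411), which is broader than theory in GMP at 1.35. Of the 75-base stretches of Eif3m transcripts 9.71% also occur in other annotated genes, so a small part of its reads may have more than 1 place.

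Other subunits gave values of the same order without passing. Eif3k, a small peripheral subunit, had the lowest value of the complex in MPP, -0.30 (SE 0.117, adjusted p = 0.305), and -0.06 (SE 0.0721) in GMP, in the authors' deposited tables. Eif3h, a further subunit, stood at -0.19 (SE 0.0970, adjusted p = 0.508) in MPP and at -0.17 (SE 0.0708, adjusted p = 0.177) in GMP. Eif3d, which can itself bind the cap of some mRNAs, stood at -0.03 in MPP and -0.14 in GMP. Of its 75-base stretches 34.2% also occur in another annotated gene. The highest value in MPP was also that of Eif3d, and Eif3b, Eif3c, Eif3e, Eif3f, Eif3g, Eif3i and Eif3l lay between -0.16 and -0.04 in both populations.

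The loosely bound subunit eIF3j is encoded by a pair of similar genes. Eif3j1 was listed at 0 in both tables and Eif3j2 at means of 0.125 in MPP and 0.356 in GMP, so neither has an adjusted p. In the annotation 87.4% of the 75-base stretches of Eif3j2 also occur in Eif3j1, and 35.0% of those of Eif3j1 in Eif3j2. In all, 47.3% of the Eif3j1 stretches are shared with other genes, and the rest are its own. The part of shared sequence in the listed 0 was not tested.

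**Figure D2:**
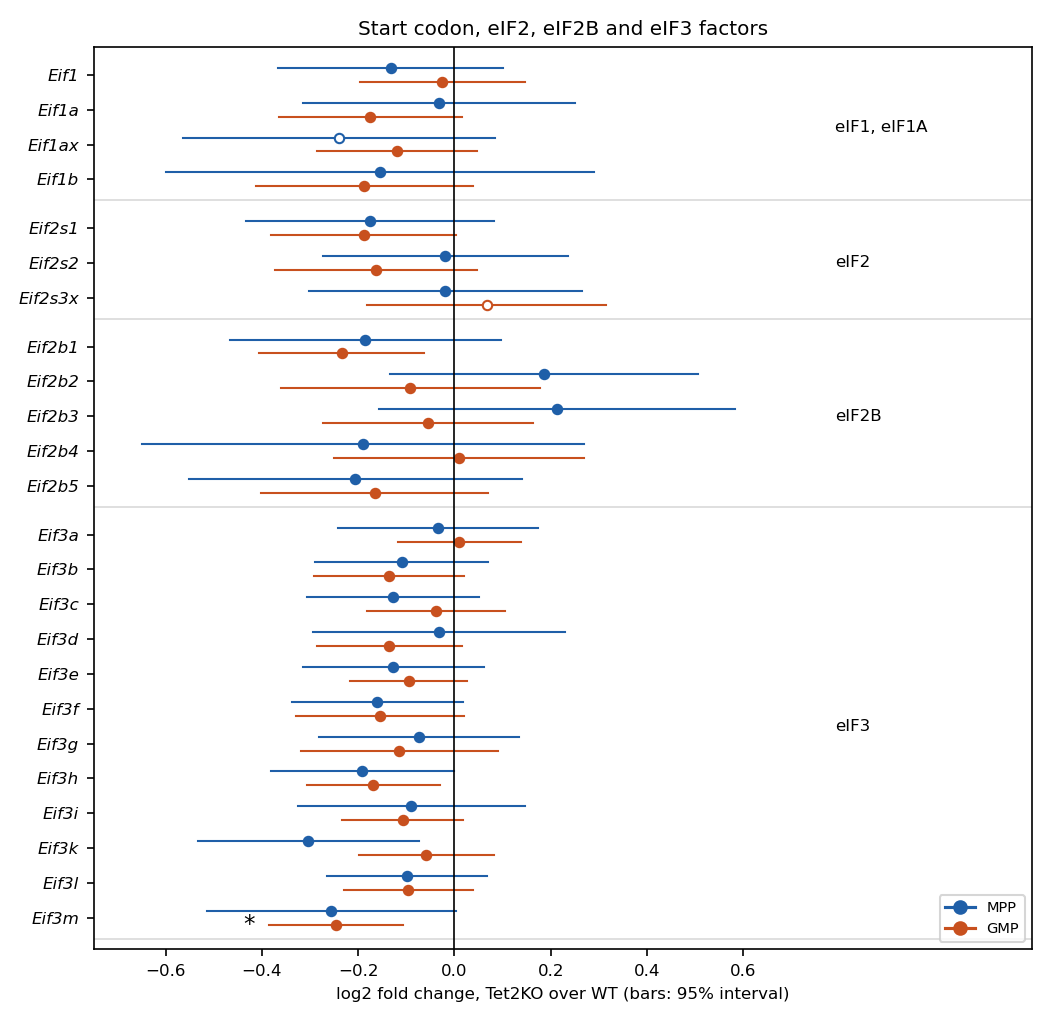
Log2 fold change (Tet2KO over WT) and its 95% interval (horizontal axis) for the eIF1, eIF1A, eIF2, eIF2B and eIF3 genes, in MPP (blue) and GMP (orange). Open circles carry no p-value, the asterisk marks Eif3m in GMP, the called gene, and the eIF3 values cluster between -0.30 and 0.01.

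The factors that find the start codon showed no called change. Eif1, whose protein guards against wrong start codons, had a value of -0.13 (SE 0.119) in MPP and -0.02 (SE 0.0871) in GMP, in the authors' deposited tables. Its close copy Eif1b stood at -0.15 (SE 0.227) and -0.19 (SE 0.115). Eif1a stood at -0.03 (SE 0.144) and -0.17 (SE 0.0967), and its X-linked partner Eif1ax at -0.12 (SE 0.0849) in GMP and, untested, at -0.24 (SE 0.165) in MPP. Of the Eif1 stretches 15.3% are shared with other annotated genes, 14 in number, so the Eif1 level is uncertain.

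eIF2 carries the initiator tRNA, and phosphorylation of its alpha subunit is the switch of the integrated stress response. The alpha subunit gene Eif2s1 had a value of -0.18 (SE 0.131, adjusted p = 0.715) in MPP and one of -0.19 (SE 0.0981, adjusted p = 0.322) in GMP, in the authors' deposited tables. The beta subunit gene Eif2s2 stood at -0.02 (SE 0.130) and -0.16 (SE 0.107). Both intervals include 0 in each population.

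The gamma subunit has an X-linked gene and a Y-linked gene. Eif2s3x stood at -0.02 (SE 0.145) in MPP and, untested, at 0.07 (SE 0.127) in GMP, in the authors' deposited tables. Eif2s3y was listed at 0 in both. The other Y-linked genes Ddx3y, Kdm5d and Uty had means of at most 1.25, and Xist had means of 106178 in MPP and 71704 in GMP. The labels do not give the sex of the mice. Of the 75-base stretches of Eif2s3x 34.2% are shared with other annotated genes.

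eIF2B is the exchange factor for eIF2 and has 5 subunits. Its values were split in MPP, with Eif2b1 (-0.19, SE 0.144), Eif2b4 (-0.19, SE 0.235) and Eif2b5 (-0.21, SE 0.176) below 0 and Eif2b2 (0.19, SE 0.163) and Eif2b3 (0.21, SE 0.189) above it, in the authors' deposited table. All 5 intervals include 0. In GMP 4 of 5 lay below 0. Eif2b1 came closest to a call there, at -0.23 (SE 0.0879, adjusted p = 0.109), and Eif2b5, the catalytic subunit, stood at -0.17 (SE 0.120, adjusted p = 0.537).

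The cap-binding complex eIF4F and its helpers showed values on both sides of 0, with 5 of 10 tested members below 0 in MPP (median -0.0100) and 7 of 10 in GMP (median -0.03). The 2 helicase genes differed in sign. Eif4a1, the main helicase of growing cells, stood at -0.20 (SE 0.0849, adjusted p = 0.376) in MPP and at -0.03 (SE 0.0596) in GMP, in the authors' deposited tables. Its close relative Eif4a2 stood at 0.09 (SE 0.0895) in MPP and at 0.15 (SE 0.0644, adjusted p = 0.205) in GMP. The difference between the pair was not tested. Of the Eif4a1 stretches 25.4% are shared with other genes, mostly with the pseudogene Eif4a-ps4.

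Among the cap binders, Eif4e, the rate-limiting and growth-promoting one, had a value of -0.23 (SE 0.136, adjusted p = 0.594) in MPP and one of -0.10 (SE 0.0870) in GMP, in the authors' deposited tables. Its relatives Eif4e2 (0.10 and 0.04) and Eif4e3 (0.07 and 0.06) lay above 0, and the oocyte form Eif4e1b was listed at 0 in MPP and at a mean of 0.402 in GMP. The scaffold genes stayed close to 0. Eif4g1 stood at 0.02 (SE 0.106) and -0.02 (SE 0.0835), Eif4g3 at 0.0996 and -0.0085, and Eif4g2, a relative that lacks the part that binds eIF4E, at -0.04 (SE 0.0620) and -0.12 (SE 0.0677, adjusted p = 0.352). The helicase helper Eif4h stood at -0.15 (SE 0.0897) and -0.13 (SE 0.0610, adjusted p = 0.272), and Eif4b at -0.08 and -0.03.

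Of the 3 eIF4E-binding inhibitors and the eIF4E transporter, 3 of 4 genes lay above 0 in each population, with medians of 0.13 in MPP and 0.05 in GMP, and none was called. Eif4ebp3, an eIF4E-binding inhibitor, had a value of 0.31 (SE 0.190, adjusted p = 0.614) in MPP and one of 0.295 (SE 0.170, adjusted p = 0.385) in GMP, in the authors' deposited tables, among the highest of all members. It is also among the least certain, since 64.2% of its 75-base stretches belong to a second annotated gene as well. Eif4ebp2 stood at 0.12 (SE 0.0845) and 0.07 (SE 0.0575), Eif4ebp1 at -0.07 (SE 0.146) and -0.11 (SE 0.0964), and the transporter Eif4enif1, which takes eIF4E into the nucleus, at 0.13 (SE 0.0976) and 0.03 (SE 0.0653).

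**Figure D3:**
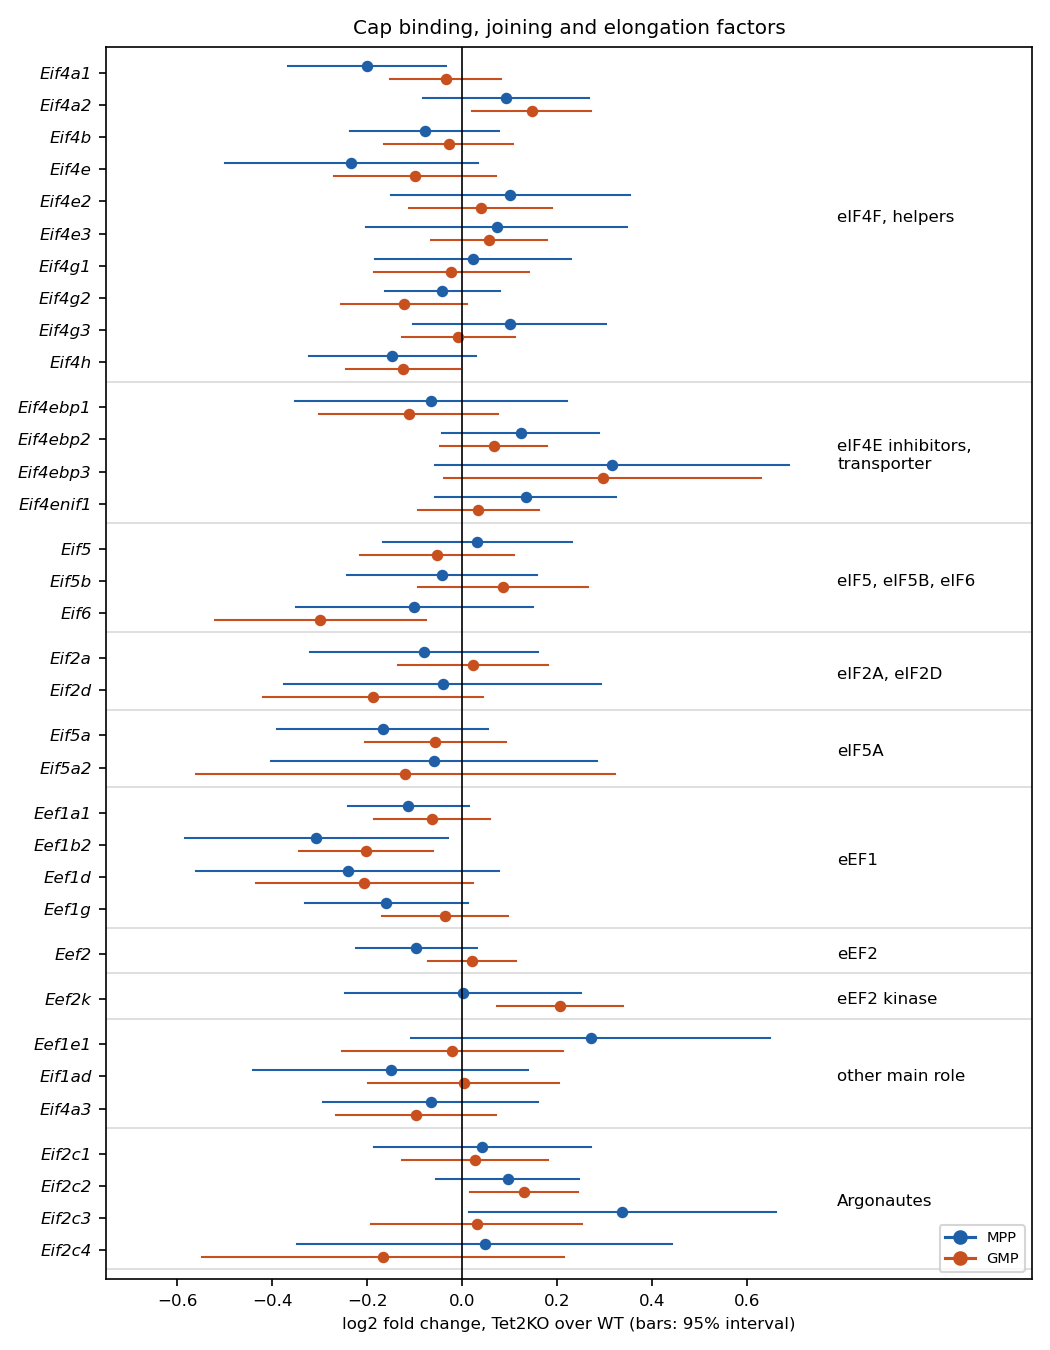
Log2 fold change (Tet2KO over WT) and its 95% interval (horizontal axis) for the other factor genes, in MPP (blue) and GMP (orange). The eEF1 genes lie between -0.31 and -0.04, Eif4ebp3 near 0.3 in both populations and Eef2k at 0.00 in MPP and 0.21 in GMP, and no gene drawn here was called.

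Of the late initiation factors, Eif6 had the lowest value of all members in GMP. Its protein keeps the large ribosomal subunit from joining too early and takes part in its assembly. Eif6 stood at -0.30 (SE 0.113, adjusted p = 0.115) in GMP and at -0.10 (SE 0.127) in MPP, in the authors' deposited tables. The joining factors Eif5 (0.03 in MPP, -0.05 in GMP) and Eif5b (-0.04 and 0.09) lay near 0. Of the factors for unconventional starts, Eif2a stood at -0.08 and 0.02 and Eif2d at -0.04 and -0.19 (SE 0.118, adjusted p = 0.449). Eif5a, the hypusine-bearing factor that eases the making of proline-rich stretches, stood at -0.17 (SE 0.114, adjusted p = 0.680) and -0.06 (SE 0.0753), and its scarce relative Eif5a2 at -0.06 (SE 0.176) and -0.12 (SE 0.225).

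The elongation factor eEF1 had all 4 tested subunit genes below 0 in each population, with medians of -0.20 in MPP and -0.13 in GMP, and none was called. Eef1b2, an exchange subunit, had the lowest value of all members in MPP, at -0.31 (SE 0.141, adjusted p = 0.440), and stood at -0.20 (SE 0.0720, adjusted p = 0.0828) in GMP, in the authors' deposited tables. The other exchange subunit gene, Eef1d, stood at -0.24 (SE 0.162) and -0.21 (SE 0.117), and Eef1g, the anchor subunit, at -0.16 (SE 0.0878) and -0.04 (SE 0.0677). Eef1a1, the most abundant factor, stood at -0.11 (SE 0.0653, adjusted p = 0.584) and -0.06 (SE 0.0622). Its muscle and nerve form Eef1a2 had means of 0.527 and 0.123 and was not tested. Of the 75-base stretches of Eef1g 38.0%, and of those of Eef1a1 26.6%, are shared with other annotated genes, so both levels are uncertain.

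Eef2, the translocation factor, had the smallest SE of all members in GMP. Its value there was 0.02 (SE 0.0471) with an interval from -0.07 to 0.11, and in MPP it was -0.10 (SE 0.0648) with an interval from -0.22 to 0.03, in the authors' deposited tables. Eef2k encodes the kinase that inactivates eEF2 and so slows elongation. In GMP it stood at 0.21 (SE 0.0677, adjusted p = 0.0548), just outside the threshold, and in MPP at 0.0017 (SE 0.127).

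Some members bear a factor's name and act mainly elsewhere. Eif4a3, the helicase of the exon junction complex, stood at -0.07 in MPP and -0.097 in GMP, and Eif1ad at -0.15 and 0.0026, in the authors' deposited tables. Eef1e1, a part of the complex of tRNA synthetases, stood at 0.27 (SE 0.193, adjusted p = 0.700) in MPP and at -0.02 in GMP. Of the 4 Argonaute genes none was called. Eif2c3 (Ago3) had the highest value of all members in MPP, 0.34 (SE 0.165, adjusted p = 0.486), and 0.03 (SE 0.113) in GMP. Eif2c2 (Ago2), the one that can cut its target, stood at 0.096 (SE 0.0767) and 0.13 (SE 0.0579, adjusted p = 0.216), Eif2c1 (Ago1) at 0.04 and 0.03, and Eif2c4 (Ago4) at 0.05 and -0.17.

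Ribosomal protein genes, the largest family of TOP mRNAs, are set beside the factors here. Of 72 tested ribosomal protein genes 70 lay below 0 in MPP, with a median of -0.19. In GMP 56 of 74 lay below 0, with a median of -0.08. Called lower were 1 in MPP (1.39%, beside 0.270% of all tested genes) and 4 in GMP (5.41%, beside 2.22%). At an unadjusted p under 0.05, 20 were lower in MPP (27.8%, beside 4.80%) and 17 in GMP (23.0%, beside 8.68%). Among the members, 10 belong to the textbook TOP mRNAs (Eef1a1, Eef1b2, Eef1d, Eef1g, Eef2, Eif3a, Eif3e, Eif3f, Eif3h and Eif4b). Of the 6 with a start-site entry, 1 was TOP-like in the reference (16.7%) and 2 had a run of at least 8 C or T bases (33.3%). All 10 lay below 0 in MPP, with a median of -0.14, and 8 of 10 in GMP, with a median of -0.08. The 35 other core factors had 27 below 0 in MPP (median -0.08) and 29 in GMP (median -0.0995). No member of the TOP list was called in either population. The populations share most of their mice, so they are given side by side and not as independent evidence.

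Transcript length moved with these values. Across all tested genes shorter genes had slightly lower values in MPP, with a median of -0.09 for 1519 genes of up to 2000 exon bases and 0.04 for 2108 genes above 8000. Among members the 23 with 2000 to 4000 exon bases had a median of -0.13 in MPP, beside -0.03 for all 3565 genes of that length, and the 7 above 8000 had 0.04. In GMP the corresponding medians were -0.02 and 0.02 for the shortest and longest of all genes, and -0.08 for the 22 members of 2000 to 4000 bases beside -0.02 for all genes of that length. Spearman's rho between log2 fold change and exon length was 0.435 over the 57 members and 0.159 over 11749 tested genes in MPP, and 0.289 and 0.0824 in GMP. These values describe genes of the same libraries, and the part of length in the lean of the members was not tested. Members that share at least 5% of their stretches with other genes had medians of -0.09 (16 genes) in MPP and -0.04 (15 genes) in GMP, and the others of -0.07 and -0.09.

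The level of each factor gene per length ran from 27.2 to 12092 per kb in MPP and from 18.2 to 14824 in GMP. Levels are the authors' mean normalized signal divided by the summed exon length of the gene in kb, over both genotypes, and each table has its own scale. Eef1a1 led with 12092 per kb in MPP and 14824 in GMP, followed by Eef2 with 5236 and 5987. Eif3a, Eif4b, Eef1b2, Eif4g2, Eef1g, Eif5a and Eif3c came next, between 1394 and 1811 in MPP. The lowest tested genes were Eif2c4, Eif2c3, Eif5a2 and Eif2b3, between 27.2 and 31.7 in MPP. Neighbours in this order cannot be told apart, since the tables give no spread of the mean.

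Partners of 1 complex did not have equal levels. Within eIF3 the transcript of Eif3a was at 1811 per kb in MPP and that of Eif3k at 206.5, a ratio of 8.77, and the ratio was 8.76 in GMP. The eIF2B subunits had a median of 115.0 per kb beside 222.0 for their substrate eIF2 in MPP, and of 136.6 beside 312.4 in GMP. The ranges overlapped or nearly met, with Eif2b1 at 166.0 and Eif2s3x at 161.8 in MPP, and Eif2b5 at 217.2 and Eif2s3x at 221.9 in GMP. Eif4e stood at 168.8 per kb in MPP, below its scaffold Eif4g1 at 627.7. Of its inhibitors, Eif4ebp2 was above it at 393.0, and Eif4ebp3 at 148.6 and Eif4ebp1 at 117.8 were below it. The exon length counts every annotated isoform, so a gene with many of them is set too low. Together the members took 1.97% of the summed signal in MPP and 2.19% in GMP, with the ribosomal RNA gene Rn45s left out, and ribosomal protein genes took 2.46% and 2.68%.

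**Figure D4:**
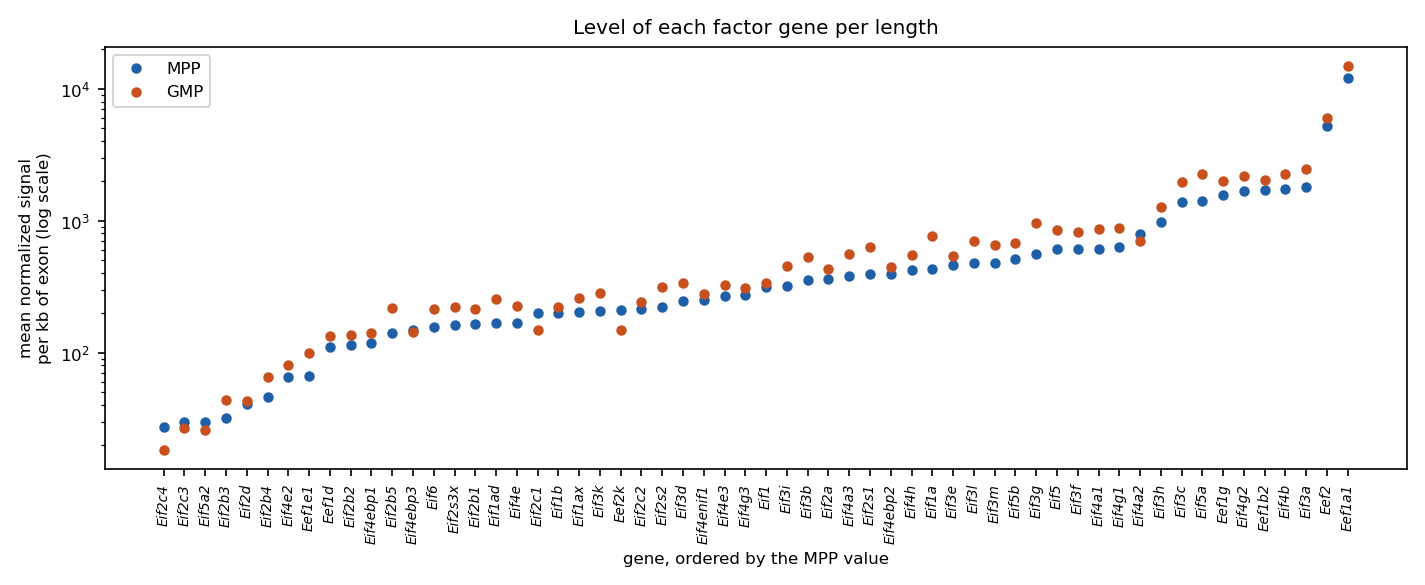
Mean normalized signal per kb of exon (vertical axis, log scale) of each member with a mean of at least 10, ordered by its value in MPP (blue), with GMP in orange. Each point is 1 gene in 1 population over both genotypes, with no spread given in the tables, and Eef1a1 and Eef2 stand above all others.

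No member passed a test of GMP against MPP. The difference of both log2 fold changes was set against its SE for 17660 genes that carry a p-value in each table, of which 8 passed (0.0453%). Of the 17660 genes 11050 were tested in both populations, and the others had a mean under 10 in at least 1 of them. Of 58 members with both values, 56 of them tested in both populations, none passed. None had an unadjusted p under 0.05, beside 3.58% of all 17660 genes. That background includes the genes of low mean, unlike nearly all members, and the share over the 11050 alone was not computed. The lowest difference of GMP minus MPP was -0.31 for Eif2c3 (95% interval -0.70 to 0.09) and the highest was 0.25 for Eif3k (-0.02 to 0.51). For Eif4a1 the difference was 0.17 (-0.04 to 0.37) and for Eef2k 0.20 (-0.08 to 0.49). These intervals still allow differences of the size of the values themselves. The test treats the errors as independent, and 3 mice of each genotype are in both tables. With errors correlated at 0.402, the correlation of both statistics across genes, 67 of all genes passed and still no member. The members at an unadjusted p under 0.05 then numbered 2 of 58 (3.45%), beside 9.20% of the same 17660 genes. They were Eif3k, with an interval of 0.03 to 0.46, and Eif4a1, with one of 0.0060 to 0.33. The value of 0.402 also takes in genotype effects common to both populations, so it is no measure of the errors alone.

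The other lists of translation control held 5 called genes, 4 described here and the mitochondrial Gfm2. With so few genes per list, 1 call makes a large share. In the authors' deposited tables Mknk1, a kinase that phosphorylates eIF4E, rose by 0.54 in MPP (SE 0.142, adjusted p = 0.0299) and stood at 0.12 in GMP. With the null widened to the spread of all statistics its adjusted p was 0.203. It was the 1 call among 16 tested genes of the mTORC1 and translation kinase list in MPP (6.25%, beside 0.616% of all tested genes). In GMP the authors' deposited table had 1 call in that list, Rheb, the small GTPase that switches mTORC1 on, which fell by 0.31 (SE 0.0960, adjusted p = 0.0353). That was 6.25% of the list, beside 3.96% of all tested genes in GMP. Mtor itself (0.04 and -0.0025), Rps6kb1 (0.07 and -0.02) and Larp1, which binds TOP mRNAs (0.11 and 0.12), lay near 0 in MPP and GMP. Rheb had an adjusted p of 0.0587 when adjusted over all genes with a p-value, and of 0.492 with the widened null.

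In the authors' deposited tables Denr, a factor of ribosome recycling and reinitiation, fell by 0.30 in GMP (SE 0.0864, adjusted p = 0.0195) and stood at -0.22 in MPP. Its adjusted p was 0.409 with the widened null. It was the 1 call among 9 tested release, recycling and reinitiation factors in GMP (11.1%, beside 3.96% of all tested genes). Of these 7 lay below 0 in MPP and 5 in GMP. The partner of Denr, Mcts1, stood at 0.09 in both populations. Hbs1l, a factor that rescues stalled ribosomes, stood at -0.26 in GMP (adjusted p = 0.0635), and the release factor Etf1 at -0.23 in MPP and -0.17 in GMP.

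Genes upstream and downstream of eIF2 phosphorylation showed 1 call. In the authors' deposited tables Asns, asparagine synthetase and a target of the stress response factor ATF4, fell by 0.38 in GMP (SE 0.111, adjusted p = 0.0217, and 0.418 with the widened null). Atf4 itself stood at 0.0054 in MPP and 0.05 in GMP. Asns was marked as an outlier in MPP. In GMP it was the 1 call among 10 tested stress response targets (10.0%, beside 3.96% of all tested genes). Of the stress response targets 7 of 11 tested lay below 0 in MPP and 6 of 10 in GMP, with medians of -0.12 and -0.13. The eIF2 kinases lay between 0.03 and 0.16 in MPP and between 0.02 and 0.19 in GMP, none called, with Eif2ak4, the amino acid sensor, at 0.16 and 0.03 and Eif2ak3, the sensor of the endoplasmic reticulum, at 0.03 and 0.19. Ppp1r15b, a subunit of the phosphatase that restores eIF2, stood at -0.20 in MPP (adjusted p = 0.542) and -0.09 in GMP.

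**Figure D5:**
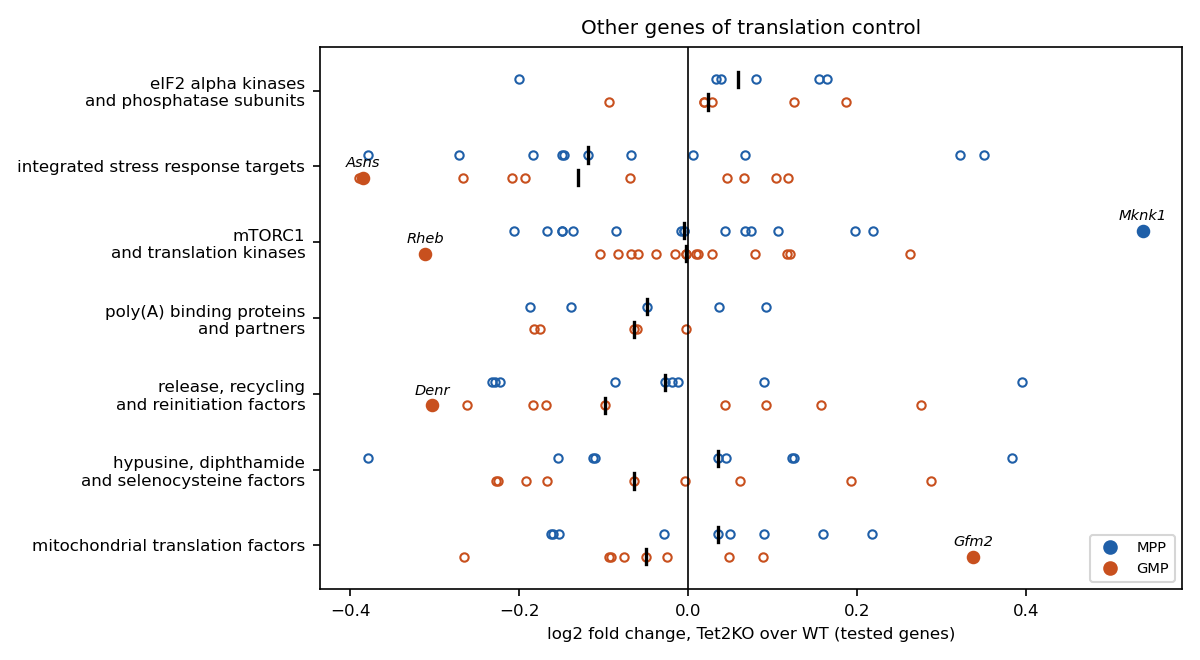
Log2 fold change of Tet2KO over WT (horizontal axis) for the tested genes of 7 lists of translation control, in MPP (blue) and GMP (orange). Black bars are the medians of each list, filled and named points are the 5 called genes, and Mknk1 at 0.54 in MPP has the highest value drawn.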

How the data were processed

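The submitters' processing notes name STAR, DESeq2 and the mm10 build. The read counter, annotation and versions were not given in the sources used here. Per the labels, each library came from 2 ng of RNA, amplified and sequenced as single reads of 75 bases, 4 mice per group. The authors deposited 1 table per population with a mean normalized signal, the log2 fold change and its SE, a p-value and an adjusted p-value per gene. Library depths are unknown.

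The members and all gene lists were chosen with earlier results of these data known. Recomputed Benjamini-Hochberg values matched the deposited ones within 2.4e-05. Tested genes have a mean of at least 10. Lists are described by counts and medians. Called members, the 3 of smallest p and the extremes of each complex, and called genes of the lists are named. Exon lengths and shared 75-base stretches come from GENCODE M21 (mm10), which held all 63 members, 4 of them by synonym, and start sites from RefSeq. Calls and the difference test were tested on simulated data (Python 3.11.15, numpy 2.4.6, pandas 2.3.3, scipy 1.17.1, matplotlib 3.10.9). The deposited p-values rest on the spread between individual mice within a population. Those of the difference between populations treat the mice as separate, although 3 of each genotype gave both populations. The spread of all statistics was 1.15 in MPP and 1.35 in GMP, broader than theory in both.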

Additional observations from a re-analysis of the deposited data

How the results depend on the processing

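No paired analysis was possible because the deposited tables hold no values per library, and for the same reason no replicate could be left out. In MPP no member was called under any alternative run. In GMP the count of 1 (Eif3m) became 3 at an adjusted p of 0.1, with Eef2k higher and Eef1b2 lower, and 0 at 0.01 or with an empirical null. That null also ended the calls of Mknk1 (adjusted p = 0.203), Denr (0.409), Rheb (0.492), Asns (0.418) and Gfm2 (0.362). With core factors only, the share of members below 0 was 82.2% in MPP and 82.2% in GMP, in place of 70.2% and 71.9%. No median over the members changed sign, and no member passed the test between populations, also with errors correlated at 0.402 (lowest adjusted p 0.447, 67 genes passing in all). The version without the Argonaute genes was chosen after seeing the data and kept all counts of calls.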

Other observations

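Translation in mitochondria uses its own factors. In the authors' deposited table for GMP Gfm2, which recycles mitochondrial ribosomes, rose by 0.34 (SE 0.0928, adjusted p = 0.0140, and 0.362 with an empirical null), the 1 call among 9 tested mitochondrial factors, of which 6 lay below 0. Tufm, the mitochondrial counterpart of eEF1A, stood at -0.27 (adjusted p = 0.291) in GMP and 0.04 in MPP, and Gfm1, the translocase, at -0.09 and -0.03. The Gfm2 call was 11.1% of the list in GMP, beside 3.96% of all tested genes. In MPP 4 of 9 lay below 0 and none was called.

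The list of hypusine, diphthamide and selenocysteine genes, which holds enzymes that modify eIF5A and eEF2 and factors that insert selenocysteine, had no call among 9 tested genes in either population. Dhps, which starts the hypusine modification of eIF5A, stood at -0.38 (adjusted p = 0.682) in MPP and -0.17 in GMP, and Dph2, which starts the diphthamide modification of eEF2, at 0.12 in MPP and 0.29 (adjusted p = 0.324) in GMP. Of the poly(A)-binding protein genes and their partners, 3 of 5 lay below 0 in MPP and 5 of 5 in GMP, none called, and Pabpc1, with a level of 6378 per kb in MPP and 9723 in GMP, stood at -0.05 and -0.06.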
